A study of Arabidopsis thaliana with 6 samples.

Results

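Transcription factor genes of the tapetum, 9 in number, were followed in anthers of *ice1-2* and Col-0 *Arabidopsis thaliana* plants. The 9 genes, *DYT1*, *TDF1*, *bHLH10*, *bHLH89*, *bHLH91*, *AMS*, *MYB80*, *MS1* and *TEK*, were taken by gene identifier, whatever their level, from 32833 genes with 1 FPKM value each (FPKM scales the fragments of a gene by its transcript length and by the library's depth) in each of 6 RNA-seq libraries. The mutant *ice1-2* is homozygous for a T-DNA insertion (the line SALK_003155) in the third exon of *ICE1*, which encodes a basic helix-loop-helix (bHLH) factor, and Col-0 is the wild type in whose background the line was made. Both genotypes were grown at 22 °C with 16 h of light and 8 h of dark, and 3 libraries of each, A, B and C, were made from anthers. The labels give anther stages 9 to 13 and the study's methods give the same numbers as flower stages, and the 2 scales are not the same. Whether A, B and C were separate plants or pools is not stated for either genotype, so p-values measure only the spread between these libraries.

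The tapetum is the innermost layer of the anther wall, which feeds the developing microspores, makes the precursors of the pollen wall polymer sporopollenin and, as it breaks down, leaves its lipids and proteins on the pollen surface as the pollen coat. In *Arabidopsis* its factors are known to act in a cascade. *DYT1* (a bHLH factor) acts early and is followed by *TDF1* (a MYB factor), then *AMS* (a bHLH factor), then *MYB80*, and *MS1* (a PHD-finger protein) acts late. The closely related *bHLH10*, *bHLH89* and *bHLH91* encode partners that bind DYT1 and act redundantly, and *TEK* encodes an AT-hook protein needed for the nexine layer of the pollen wall.

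In TAIR10.1 coordinates, *bHLH91* (AT2G31210, chr2:13296143-13298277) and *bHLH10* (AT2G31220, chr2:13302666-13304869) lie on the plus strand of chromosome 2, 4388 bases apart with 1 annotated gene between them. *bHLH89* (AT1G06170, chr1:1884981-1886904) is on the minus strand of chromosome 1. *AMS* (AT2G16910, chr2:7331721-7334254) is on the plus strand of chromosome 2, and 440 of its bases are covered on the other strand by the non-coding RNA gene AT2G06795, at 0.443 to 2.18 FPKM, and 29 by AT2G16920, at 5.95 to 9.34 FPKM. *TEK* (AT2G42940, chr2:17862254-17863456, minus strand) lies wholly inside the gene AT2G42920 on the other strand, which had a higher FPKM, of 2.32, 2.42 and 3.43 in *ice1-2* A, B and C, against 4.78, 3.96 and 4.05 FPKM in Col-0 A, B and C. Neither the labels nor the methods state whether counting used strand, so *TEK* reads and reads of AT2G42920 cannot be told apart. *TDF1* (AT3G28470, chr3:10674508-10675724, minus strand), *DYT1* (AT4G21330, chr4:11349922-11350694, plus strand), *MS1* (AT5G22260, chr5:7367635-7370295, minus strand) and *MYB80* (AT5G56110, chr5:22719191-22720664, plus strand) overlap no other annotated gene.

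Because *bHLH10*, *bHLH89* and *bHLH91* are close paralogs, the 60 coding bases in which they are most alike are shown, from base 1187 of the *bHLH10* coding sequence, base 1052 of *bHLH89* and base 1097 of *bHLH91*, with capitals at the bases that differ from *bHLH10*.
bHLH10: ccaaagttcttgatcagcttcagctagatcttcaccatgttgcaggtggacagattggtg
bHLH89: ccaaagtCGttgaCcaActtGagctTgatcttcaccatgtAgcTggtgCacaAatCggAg
bHLH91: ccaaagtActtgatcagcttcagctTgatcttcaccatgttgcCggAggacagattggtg
In this stretch *bHLH91* differed from *bHLH10* at 4 bases and *bHLH89* at 12. Over the whole transcripts, the longest exact run shared by 2 of the 3 was 21 bases, and the most alike 100-base windows, the read length in the labels, had 91 identical bases for *bHLH10* and *bHLH91*, 88 for *bHLH10* and *bHLH89* and 83 for *bHLH89* and *bHLH91*. No 100 bases were therefore the same in 2 of them. With *AMS* the 3 shared at most 60 of 100 bases.

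The 250 bases before the annotated starts of the 3 paralogs are shown because their levels moved together across the libraries, with capitals at each E-box, the 6-base motif CANNTG (the same on both strands) that bHLH proteins are known to bind.
bHLH10: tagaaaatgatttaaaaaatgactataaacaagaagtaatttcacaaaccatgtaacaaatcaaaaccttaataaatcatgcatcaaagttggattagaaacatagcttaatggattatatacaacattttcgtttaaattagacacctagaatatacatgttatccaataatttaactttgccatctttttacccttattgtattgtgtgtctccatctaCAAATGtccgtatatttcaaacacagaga
bHLH89: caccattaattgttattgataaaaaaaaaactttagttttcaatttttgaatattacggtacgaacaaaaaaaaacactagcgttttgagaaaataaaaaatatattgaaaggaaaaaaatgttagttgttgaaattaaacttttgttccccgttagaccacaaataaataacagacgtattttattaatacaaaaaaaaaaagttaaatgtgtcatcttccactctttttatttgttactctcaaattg
bHLH91: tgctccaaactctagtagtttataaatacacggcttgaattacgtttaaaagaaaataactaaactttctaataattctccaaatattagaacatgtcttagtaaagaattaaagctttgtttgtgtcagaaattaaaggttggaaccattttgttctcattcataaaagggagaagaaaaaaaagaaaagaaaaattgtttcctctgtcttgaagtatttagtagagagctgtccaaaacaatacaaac
These windows are chr2:13302416-13302665 (plus strand) for *bHLH10*, chr1:1886905-1887154 (minus strand) for *bHLH89* and chr2:13295893-13296142 (plus strand) for *bHLH91*, in TAIR10.1. One E-box was found, CAAATG, beginning 29 bases before the start of *bHLH10*. Over the 27443 protein-coding genes of the data with such a window, 55.3% held at least 1 E-box.

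The libraries differed in depth, and Col-0 A stood apart in many tapetal genes. Steps between low FPKM values corresponded to about 5.88, 19.6 and 14.3 M fragments (M for mega) in *ice1-2* A, B and C, against 24.0, 27.0 and 22.1 M fragments in Col-0 A, B and C. These depths are rough, since between 30.9% and 54.4% of the low values lay within 0.05 of a whole step. Ribosomal RNA genes held 7.10% of the FPKM sum in *ice1-2* A and between 0.461% and 2.22% in the other libraries. Col-0 A carried high levels of many but not all tapetal genes, and values without it are given beside the results that it moves. Across genes it did not stand apart. Its Spearman's rho was 0.954 with Col-0 B and 0.948 with Col-0 C, beside 0.953 and 0.952 for *ice1-2* A with *ice1-2* B and C. Col-0 A was singled out through the tapetal genes themselves, so results without it are no independent support for a difference in those genes. *ICE1* (AT3G26744) itself had an FPKM of 12.9, 15.4 and 21.5 in *ice1-2* A, B and C, against 12.7, 9.25 and 14.0 FPKM in Col-0 A, B and C (log2 fold change 0.44, SE 0.24, adjusted p = 0.323, limma). A value summed over the whole gene does not show whether the transcript is interrupted, so it does not check the labels, and *ice1-2* below names the libraries that carry that label.

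Of the 9 factors 4, *AMS*, *bHLH10*, *bHLH89* and *bHLH91*, entered the comparison of 18858 genes, which asked for 1 FPKM or more in 3 or more libraries. They reached 1 FPKM in all 6 libraries, whereas *DYT1*, *MYB80*, *MS1* and *TEK* had low values or 0 and *TDF1* was listed at 0 throughout. None of the 9 was called between *ice1-2* and Col-0 at a log2 fold change beyond 1 and an adjusted p under 0.05 (limma on log2(FPKM + 0.5), Benjamini-Hochberg adjustment). By the same rule 1.78% of all genes tested were called. Without a limit on the fold the count of members was also 0, and 0 of the 4 in this comparison had an unadjusted p under 0.05, against 21.4% of all genes.

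**Figure D1:**
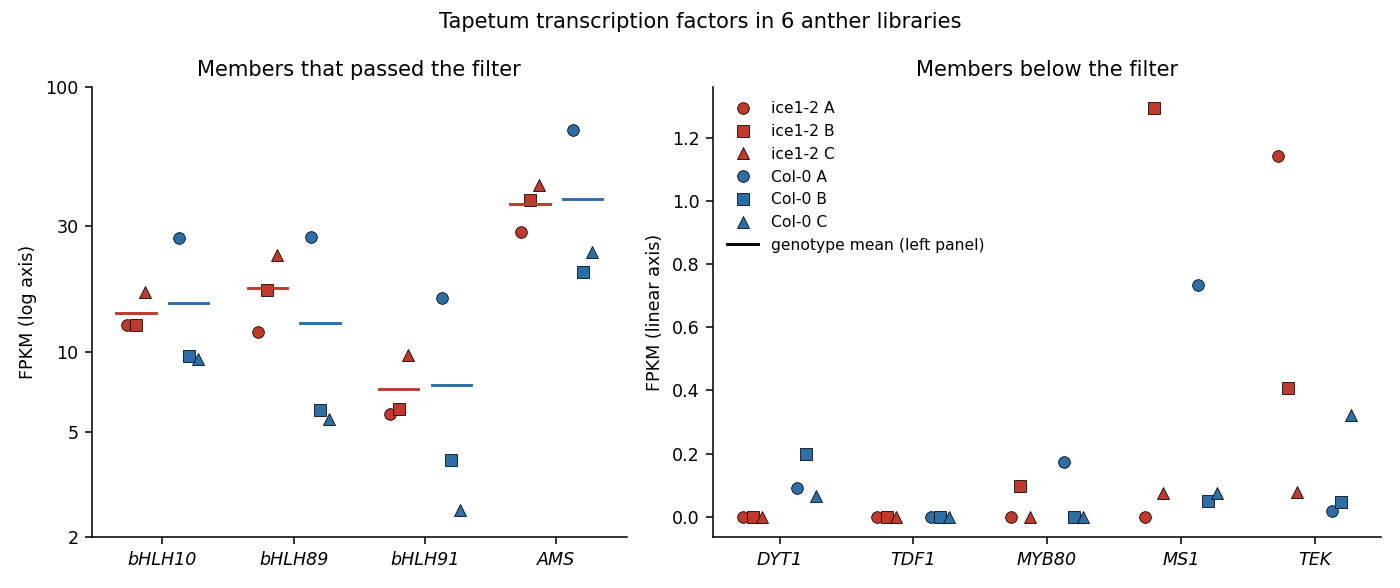
FPKM of each factor in each library, *ice1-2* in red on the left of each pair and Col-0 in blue on the right. The left panel has a log axis and bars at the genotype means of the 4 factors that passed the filter, and the right panel has a linear axis for the 5 that did not. Col-0 A is the highest library for all 4 factors on the left, from 16.0 FPKM for *bHLH91* to 69.2 FPKM for *AMS*.

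*AMS*, which activates much of the pollen wall program, was the most abundant of the 9 in every library. Its FPKM was 28.4, 37.5 and 42.9 in *ice1-2* A, B and C, against 69.2, 20.0 and 23.9 FPKM in Col-0 A, B and C. The *ice1-2* values lay between Col-0 A and the other 2 Col-0 libraries, so the genotypes overlapped. The mean was 36.3 ± 7.30 in *ice1-2* and 37.7 ± 27.4 in Col-0 (SD, n = 3 each), and the log2 fold change was 0.15 (SE 0.42, adjusted p = 0.865, limma).

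*bHLH89* had the largest fold change of the 4. Its FPKM was 11.9, 17.2 and 23.2 in *ice1-2* A, B and C, against 27.1, 6.02 and 5.59 FPKM in Col-0 A, B and C. Again Col-0 A was above all *ice1-2* libraries and Col-0 B and C were below them. The mean was 17.4 ± 5.64 in *ice1-2* and 12.9 ± 12.3 in Col-0 (SD, n = 3 each), with a log2 fold change of 0.75 (SE 0.54, adjusted p = 0.457, limma).

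*bHLH91* was the lowest of the 4 in every library. It had 5.85, 6.08 and 9.76 FPKM in *ice1-2* A, B and C, against 16.0, 3.90 and 2.53 FPKM in Col-0 A, B and C. Here too the genotypes overlapped only through Col-0 A. The log2 fold change was 0.32 (SE 0.56, adjusted p = 0.769, limma), with means of 7.23 ± 2.19 in *ice1-2* and 7.49 ± 7.44 in Col-0 (SD, n = 3 each).

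Its neighbour *bHLH10* varied least. The FPKM was 12.7, 12.6 and 16.8 in *ice1-2* A, B and C, against 27.0, 9.64 and 9.43 FPKM in Col-0 A, B and C. The order of the libraries was the same, Col-0 A first, the *ice1-2* libraries next and Col-0 B and C last. The mean was 14.0 ± 2.40 in *ice1-2* and 15.4 ± 10.1 in Col-0 (SD, n = 3 each), and the log2 fold change was 0.04 (SE 0.38, adjusted p = 0.965, limma). The largest level was 2.86 times the smallest for *bHLH10*, 3.46 times for *AMS*, 4.85 times for *bHLH89* and 6.35 times for *bHLH91*.

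In the same fit the median log2 fold change of the 4 factors was 0.24, beside 0.15 over all genes tested. With the libraries scaled to a common median ratio the medians were 0.06 for the 4 and -0.02 for all genes, and the log2 fold changes of *bHLH10* and *AMS* were then below 0, at -0.14 and -0.03.

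Each library was left out in turn. The fit without Col-0 A is set out because the 4 factors were highest in it, so that fit is read as a description. Without Col-0 A, all 4 factors were higher in every *ice1-2* library than in Col-0 B and C. Of all genes tested without that library, 30% were separated in the same direction. *bHLH89* was then called, with a log2 fold change of 1.46 (SE 0.29, adjusted p = 0.0326, limma), where 3.38% of all genes were called. With the filter also left out, a combination tried after the data were seen, its log2 fold change was 1.46 with an adjusted p of 0.126 (limma) and it was not called. The other 3 were not called. Their log2 fold changes without Col-0 A were 1.05 (SE 0.30, adjusted p = 0.0901) for *bHLH91*, 0.70 (SE 0.25, adjusted p = 0.153) for *AMS* and 0.52 (SE 0.23, adjusted p = 0.235) for *bHLH10*, all from limma. Leaving out Col-0 B or Col-0 C instead gave *bHLH10* -0.20 and -0.21, *AMS* -0.19 and -0.06 and *bHLH91* 0.09 and -0.18, none of them called. The direction of *bHLH89* stayed positive in each of these fits, between 0.37 and 1.46. In bulk anthers a difference in the share of tapetal cells and a difference in RNA per cell cannot be told apart.

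**Figure D2:**
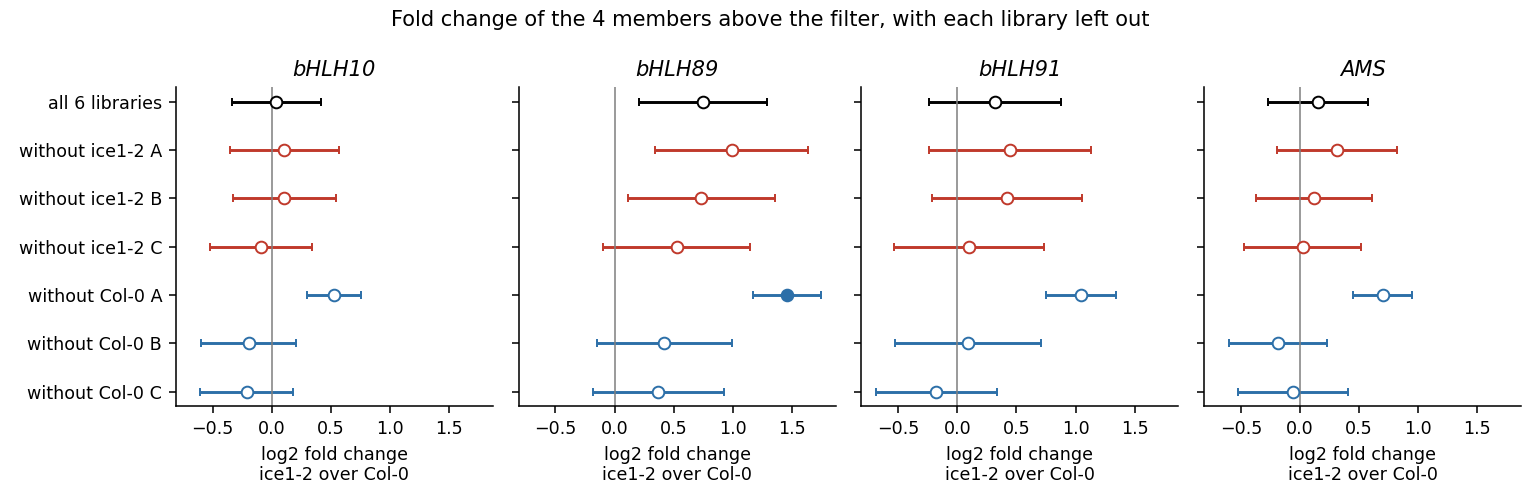
Log2 fold change of *ice1-2* over Col-0 with its standard error for the 4 factors that passed the filter, with all 6 libraries (black) and with each *ice1-2* (red) or Col-0 (blue) library left out. Filled points are called. The single filled point is *bHLH89* without Col-0 A, at 1.46.

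How far Col-0 A stood from Col-0 B and C was measured on the log2(FPKM + 0.5) scale, as its value minus the mean of the other 2. The difference was 2.18 for *bHLH91*, 2.13 for *bHLH89*, 1.64 for *AMS* and 1.46 for *bHLH10*, beside a median of 0.11 over the 18858 genes. Only 117 genes had a larger difference than *bHLH91*, and 336 a larger one than *bHLH10*. All 8 genes of the pollen coat and late tapetum list were also highest in Col-0 A, with differences from 1.19 to 2.26. For the 9 sporopollenin genes the differences ran from 0.93 to 5.01. The 14 other tapetum targets were less uniform, from -1.15 (*CEP1*) to 6.48 (*A9*) with a median of 2.37. Among these, *GLOX1* was at 0.01, *NEF1* at 0.31 and *RPG1* at 0.35. Of the low members, *MS1* was at 1.13 and *MYB80* at 0.43, while *TEK* was at -0.37 and *DYT1* at -0.09. The stage mix of the anthers is not given library by library, and its part in these values was not tested.

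**Figure D3:**
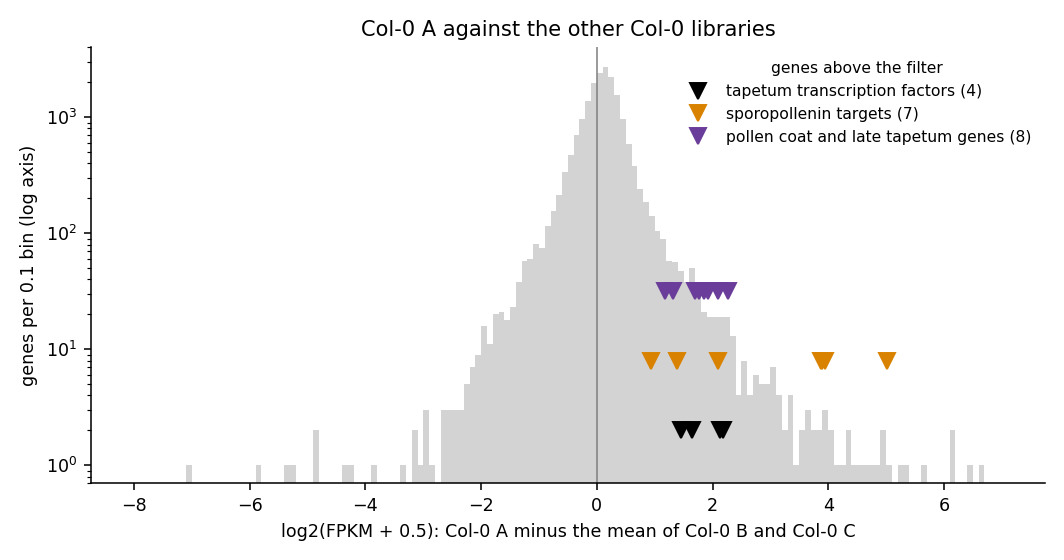
Distribution over 18858 genes of the log2(FPKM + 0.5) difference between Col-0 A and the mean of Col-0 B and Col-0 C (grey, genes per bin on a log axis). Triangles mark the 4 factors (black, 1.46 to 2.18), the 7 sporopollenin genes above the filter (orange) and the 8 pollen coat and late tapetum genes (purple), all to the right of the median of 0.11. The other tapetum targets are not marked.

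Within a library *AMS* kept a similar proportion to the next factor, which was *bHLH10* in some libraries and *bHLH89* in others. To *bHLH10* alone its ratio ran from 2.08 (Col-0 B) to 2.96 (*ice1-2* B). The ratios of *AMS* to *bHLH91* and of *bHLH89* to *bHLH10* varied more. *AMS* was between 1.85 and 2.24 times the next factor in *ice1-2* libraries and between 2.08 and 2.55 times in Col-0 libraries, and it made up between 46.2% and 49.8% of the summed FPKM of the 9 in *ice1-2* and between 49.3% and 57.0% in Col-0. It ranked above 91.1% of all genes by mean FPKM in *ice1-2* and above 92.2% in Col-0. Over the *ice1-2* libraries the ranges of *AMS*, of *bHLH89* with *bHLH10*, and of *bHLH91* did not overlap, while those of *bHLH89* and *bHLH10* did. In Col-0, with the wide spread that Col-0 A gives, each neighbour in the order *AMS*, *bHLH10*, *bHLH89* and *bHLH91* overlapped the next. *AMS* was 4.86, 6.16 and 4.39 times *bHLH91* in *ice1-2* A, B and C, against 4.32, 5.12 and 9.45 times in Col-0, and these ranges overlapped. The order of the middle pair varied. *bHLH89* was 0.941, 1.36 and 1.38 times *bHLH10* in *ice1-2* A, B and C, against 1.00, 0.625 and 0.593 times in Col-0 A, B and C, so this ratio overlapped between the genotypes through *ice1-2* A and Col-0 A.

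The likeness of the 4 across the libraries was high for all 6 pairs. Pearson's r of log2(FPKM + 0.5) over the 6 libraries was between 0.895 and 0.969 and Spearman's rho between 0.886 and 1.00. With the genotype means removed r was between 0.929 and 0.984, and without Col-0 A it was between 0.840 and 0.963. Leaving out the 2 libraries farthest from the median of *AMS*, Col-0 A and Col-0 B, gave 0.902 to 0.987. These values are descriptions over few libraries that share depth and tissue makeup between genes. The 5 genes most like the mean standardized profile of the 4 were *APC2* (AT5G51050), AT4G30500, AT2G43240, *UBP17* (AT5G65450) and *GGPS2* (AT2G23800), with r between 0.995 and 0.998 over 6 libraries and between 0.990 and 0.995 without Col-0 A. *GGPS2* encodes a geranylgeranyl diphosphate synthase, an isoprenoid enzyme, and had 100.4, 130.1 and 184.6 FPKM in *ice1-2* A, B and C, against 263.7, 72.0 and 62.5 FPKM in Col-0 A, B and C. An r over 0.9 with this profile was reached by 425 genes, 2.25% of those tested.

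The early factors were at the limit of detection. *DYT1* was listed at 0 in all 3 *ice1-2* libraries, against 0.0908, 0.199 and 0.0666 FPKM in Col-0 A, B and C. The Col-0 values correspond to about 1.36, 3.36 and 0.92 fragments, and 3 fragments would give *DYT1* 0.818, 0.246 and 0.336 FPKM in *ice1-2* A, B and C, above every Col-0 value. A level like that of Col-0 was therefore not detectable in *ice1-2* at this depth, and no fold change is given. *DYT1* was not called in the fit without the filter (unadjusted p = 0.0214, adjusted p = 0.198, limma), in which 0.101% of 27825 genes were called. *TDF1* was listed at 0 in all 6 libraries, where 3 fragments would give between 0.108 and 0.498 FPKM. A 0 in these values is not read as an absent transcript, since *RABE1b* (AT4G20360), which encodes a chloroplast translation factor, was listed at 0 in *ice1-2* A and at 12.2 to 112.3 FPKM in the other libraries.

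The later factors *MS1* and *MYB80* were found mainly in the same 2 libraries, 1 of each genotype. *MS1* had 0, 1.295 and 0.0764 FPKM in *ice1-2* A, B and C, against 0.735, 0.0494 and 0.0768 FPKM in Col-0 A, B and C. *ice1-2* B and Col-0 A held about 55.6 and 38.8 fragments of it and no other library over 4. *MYB80* had 0, 0.0979 and 0 FPKM in *ice1-2* A, B and C, against 0.172, 0 and 0 FPKM in Col-0 A, B and C, or about 1.85 fragments in *ice1-2* B and 3.98 in Col-0 A. Neither was called without the filter, with log2 fold changes of 0.13 (SE 0.54, adjusted p = 0.915) for *MS1* and -0.06 (SE 0.15, adjusted p = 0.862) for *MYB80* by limma. Without *ice1-2* B the value of *MS1* was -0.45, and without Col-0 A it was 0.51.

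*TEK* had 1.14, 0.409 and 0.0790 FPKM in *ice1-2* A, B and C, against 0.0177, 0.0459 and 0.321 FPKM in Col-0 A, B and C. Its highest library was *ice1-2* A, where the other low factors were listed at 0 and where 3 fragments already give 0.424 FPKM. The libraries held between 0.513 and 9.64 fragments of it. The log2 fold change without the filter was 0.63 (SE 0.39, adjusted p = 0.440, limma), and *TEK* was not called.

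The genes that these factors are known to control did not pass the test with all libraries. Of 7 sporopollenin genes above the filter 0 were higher or lower in *ice1-2* at an adjusted p under 0.05, of 13 other tapetum targets 0, and of 8 pollen coat and late tapetum genes 0, where 1.89% of all genes passed (limma). Their median log2 fold changes were 0.57, 0.69 and 0.12, beside 0.15 over all genes. Without Col-0 A the medians were 1.03 over 5 sporopollenin genes, 1.71 over 11 other targets and 0.71 over 8 pollen coat genes, beside 0.19 over all genes. In that fit *ACOS5*, *MS2* and *A9* passed the filter only through the *ice1-2* libraries, where they were higher. Their log2 fold changes, 2.17, 2.38 and 3.87, raise the sporopollenin and other target medians, so these medians lean upward through the filter. At an unadjusted p under 0.05 the counts with all libraries were 0, 2 and 0, where 21.4% of all genes had one, and the 2 went opposite ways, *QRT3* at 1.16 and *GLOX1* at -0.88. Of 11 genes above the filter that act upstream of the tapetum factors 0 passed, with a median log2 fold change of 0.26, and 4 had an unadjusted p under 0.05, 3 of them with a positive log2 fold change.

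Sporopollenin genes, which encode the enzymes and the transporter that make and export the polymer's precursors, were mostly highest in the same libraries as *MS1*. In 7 of the 9 the 2 highest libraries were *ice1-2* B and Col-0 A. This was also so for 3 of the 14 other tapetum targets, but for 0 of the 8 pollen coat genes and for none of *AMS*, *bHLH10*, *bHLH89* and *bHLH91*. The share of all genes with these 2 libraries highest was not counted. *MYB80* was above 0 only in these 2, at about 1.85 and 3.98 fragments, too few for a profile. *MS2*, a fatty acyl reductase named here after its values were seen, had 1.13, 20.7 and 1.29 FPKM in *ice1-2* A, B and C, against 23.9, 0.292 and 0.225 FPKM in Col-0 A, B and C. In *ice1-2* C, where *AMS* was at 42.9 FPKM and above its level in *ice1-2* B, *MS2* was thus at 1.29 FPKM.

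The 2 most abundant sporopollenin genes differed from this. *TKPR1*, a reductase of polyketide precursors, had 14.7, 37.7 and 42.9 FPKM in *ice1-2* A, B and C, against 34.6, 16.9 and 19.1 FPKM in Col-0 A, B and C. *TKPR2*, which encodes a related reductase, had 14.1, 13.0 and 15.9 FPKM in *ice1-2*, against 18.4, 7.31 and 6.25 FPKM in Col-0. Their log2 fold changes were 0.36 (SE 0.42, adjusted p = 0.654) and 0.57 (SE 0.36, adjusted p = 0.393) by limma. Without Col-0 A *TKPR2* passed, at 1.03 (adjusted p = 0.0441, limma).

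Pollen coat genes mostly followed the 4 abundant factors. Over the 8 genes, the median r with the mean profile of the 4 factors was 0.970, against 0.761 over the 7 sporopollenin genes and 0.454 over the 11 upstream genes, a description over 6 libraries. Over the 13 other tapetum targets it was 0.813, and over the 5 green tissue markers 0.199. Without Col-0 A the median r was 0.950 over the pollen coat genes, 0.637 over the sporopollenin genes and 0.744 over the upstream genes, so the order of the last pair was the other way round. In the same 5 libraries it was 0.823 over the other tapetum targets and 0.940 over the green tissue markers, near the pollen coat value. *GRP14* and *GRP16*, named here for these values, then had r of 0.263 and 0.301, where the other 6 pollen coat genes had 0.779 or more. *GRP19*, an oleosin-like protein of the pollen coat, had 2270, 2722 and 3116 FPKM in *ice1-2* A, B and C, against 5251, 1695 and 1560 FPKM in Col-0 A, B and C (log2 fold change 0.16, SE 0.48, adjusted p = 0.877, limma, and 0.72, adjusted p = 0.269, without Col-0 A). *GRP17*, another of these proteins, had 1320, 1192 and 1662 FPKM in *ice1-2*, against 3806, 1274 and 983 FPKM in Col-0, and here *ice1-2* did not lie above Col-0 B and C throughout (log2 fold change -0.29, SE 0.49, adjusted p = 0.763, limma, and 0.30, adjusted p = 0.637, without Col-0 A).

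**Figure D4:**
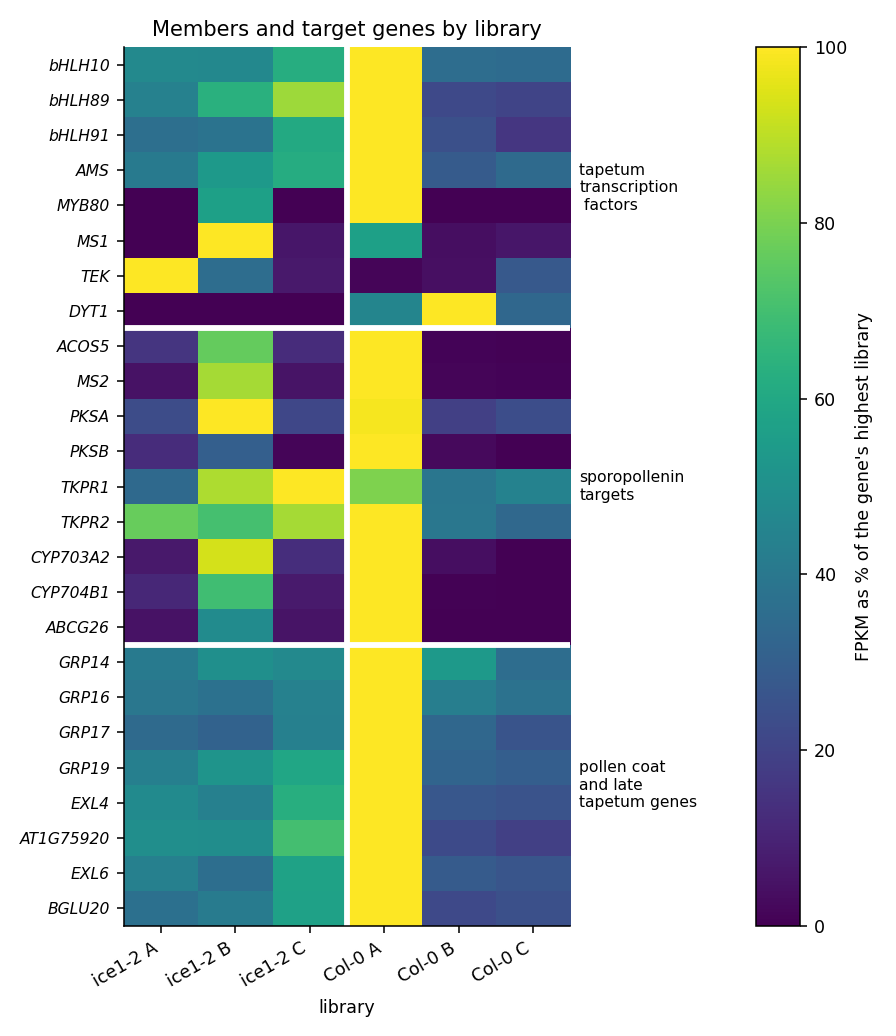
FPKM of 8 tapetum factors, 9 sporopollenin genes and 8 pollen coat and late tapetum genes in each library (columns, *ice1-2* on the left and Col-0 on the right), as a percent of the gene's highest library. *TDF1*, listed at 0, is left out. *MS1* and most sporopollenin genes are high in *ice1-2* B and Col-0 A, as *MS2* with 86.4% in *ice1-2* B, while *AMS* is at 41.1% to 61.9% of Col-0 A in *ice1-2* and at 28.9% and 34.5% in Col-0 B and C. The row of *MYB80* rests on a few fragments in *ice1-2* B and Col-0 A.

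The 2 most abundant of the other tapetum targets had the same order of Col-0 A, then the *ice1-2* libraries, then Col-0 B and C as the bHLH factors. *LTP12*, a lipid transfer protein, had 614.6, 1184 and 1643 FPKM in *ice1-2* A, B and C, against 1969, 218.4 and 165.9 FPKM in Col-0 A, B and C (log2 fold change 1.35, SE 0.85, adjusted p = 0.390, limma). *TSM1*, a methyltransferase of tapetal phenolamides, had 351.5, 385.3 and 453.5 FPKM in *ice1-2*, against 970.5, 100.2 and 133.3 FPKM in Col-0 (log2 fold change 0.75, SE 0.73, adjusted p = 0.590, limma). *GLOX1*, the next in abundance and named after its values were seen, went the other way, with 294.0, 202.5 and 173.3 FPKM in *ice1-2*, against 402.5, 443.9 and 360.2 FPKM in Col-0 (log2 fold change -0.88, SE 0.25, adjusted p = 0.101, limma), and it did not pass. Without Col-0 A the values of *LTP12* and *TSM1* were 2.48 and 1.77, and both passed (adjusted p = 0.0193 and 0.0131, limma). In that fit 5 of 11 other tapetum targets, 1 of 5 sporopollenin genes and 1 of 8 pollen coat genes were higher in *ice1-2* and 0 were lower, where 3.41% of all genes passed in either direction. Besides *TKPR2*, *LTP12* and *TSM1* these were *ATA7*, *QRT3*, *SHT* and AT1G75920, which the naming rule did not choose and which are named because they passed. With the filter also left out 0 of these target genes passed.

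Genes known to act upstream, in the specification of the anther cell layers, varied less between libraries. *SPL*, a factor that starts sporogenous development, had 22.4, 25.6 and 38.8 FPKM in *ice1-2* A, B and C, against 22.9, 16.3 and 22.0 FPKM in Col-0 A, B and C (log2 fold change 0.47, SE 0.24, adjusted p = 0.304, limma). *TGA9*, a bZIP factor of anther lobes, had 10.9, 14.3 and 23.5 FPKM in *ice1-2*, against 19.7, 13.3 and 27.6 FPKM in Col-0 (log2 fold change -0.32, SE 0.33, adjusted p = 0.611, limma). Over the 13 genes the median difference between Col-0 A and the other Col-0 libraries was 0.15, close to that of all genes. Without Col-0 A 0 of 11 passed.

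Markers of other cell types show what else the anthers held. All 5 green tissue markers were above the filter, their summed FPKM was 1912 to 3254 in *ice1-2* and 1148 to 1396 in Col-0, and 4 of 5 did not overlap between the genotypes. Over all genes 19.8% were separated in that direction. *PSAF*, a photosystem I subunit, was the 1 marker that passed, with 167.1, 199.0 and 257.9 FPKM in *ice1-2*, against 93.2, 86.4 and 103.8 FPKM in Col-0 (log2 fold change 1.12, SE 0.22, adjusted p = 0.0468, limma). Its adjusted p was 0.0470 without *ice1-2* A, and with any other library left out it no longer passed, the adjusted p ranging up to 0.161 (Col-0 B left out) from 0.0574 (Col-0 A left out). The most abundant pair, *RBCS1A* (Rubisco small subunit) and *LHCB1.3* (light-harvesting protein), had log2 fold changes of 1.05 (adjusted p = 0.106) and 0.88 (adjusted p = 0.105) by limma. With the profile of the 4 factors the 5 markers had r between 0.0762 and 0.271 over the 6 libraries, and between 0.778 and 0.990 over the 5 without Col-0 A. The part of these cells in the tapetal values was not tested.

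All 6 mature pollen markers were above the filter, with sums of 5325 to 9033 FPKM in *ice1-2* and 8265 to 11361 FPKM in Col-0. The most abundant were *VGD1*, a pectin methylesterase, at a log2 fold change of -0.60 (adjusted p = 0.345), and *AGP6*, an arabinogalactan protein, at -0.19 (adjusted p = 0.788), both from limma. *VGD1* and *ACA9* were lower in every *ice1-2* library than in every Col-0 library, and the other markers overlapped. The share of all genes separated in that direction is not given. *ACA9*, named after its values were seen, was at -0.82 (adjusted p = 0.0647, limma). None of the 6 passed, and their median r with the factor profile was -0.43, or -0.71 without Col-0 A. Meiocyte markers summed to 8.36 to 11.7 FPKM in *ice1-2* and 6.88 to 8.28 FPKM in Col-0, with 2 of 4 above the filter (*DMC1* and *SYN1*). The 3 endothecium markers, led by *NST1* and *MYB26*, summed to 39.1 to 69.1 FPKM in *ice1-2* and 29.9 to 55.2 FPKM in Col-0. The 5 carpel and ovule markers, led by *SPT* and *SHP2*, summed to 6.23 to 16.5 FPKM in *ice1-2* and 8.79 to 12.5 FPKM in Col-0. The sepal and petal markers *AP1* and *RBE* summed to 2.01 to 3.62 FPKM in *ice1-2* and 0.371 to 1.75 FPKM in Col-0, and *RBE* was listed at 0 in *ice1-2* B and C and in Col-0 C. Without Col-0 A, *AP1* passed (log2 fold change 1.59, adjusted p = 0.0372, limma), and with all libraries it had 1.24 (adjusted p = 0.107). In the fit without Col-0 A *AP1* entered only through *ice1-2*, since Col-0 B and C had 0.804 and 0.371 FPKM of it.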

How the data were processed

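RNA of anthers was sequenced in 6 libraries, 3 per genotype. The authors trimmed reads with Trim Galore, mapped them to TAIR10 with TopHat2, counted them per gene with HTSEQ after assembly by StringTie and Cufflinks-CuffMerge, and deposited FPKM values, which were used as deposited. The labels name both single-end and paired-end reads. The study's count test was not run, for want of counts in the files used. Genes that reached 1 FPKM in 3 or more libraries (18858 of the 27825 above 0) were fitted as log2(FPKM + 0.5) in limma 3.58.1 (R 4.3.3) with a trend and genotype as the only term, and p-values were adjusted by Benjamini-Hochberg. The pseudocount understates changes of low genes. Members below the filter were fitted without it. The procedure was tested on simulated data with independent spread for each gene. No shift shared by the genes of 1 library was simulated, so the test does not cover a library that stands apart in many genes, as Col-0 A does in tapetal genes. List genes were counted at an adjusted p under 0.05.

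Named besides the 9 members were *ICE1*, up to 4 genes per list and direction among those that passed, the 2 most abundant of each list, and the 5 genes most like the members. Members and lists were chosen with earlier results of these data known. The names *bHLH10*, *bHLH89*, *bHLH91* and *TEK* are those of the series, not of RefSeq. Depth was estimated from steps between low values, with transcript lengths of RefSeq TAIR10.1, which also gave coordinates and sequence, and counting limits of 3 fragments cover counting error only. Alternatives were pseudocounts of 0.1 and 1, no filter, each library left out, the replicate letter as a block, median-ratio scaling, no limit on the fold, library quality weights and no trend. Python 3.11.15, numpy 2.4.6, pandas 2.3.3, scipy 1.17.1 and matplotlib 3.10.9 were used.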

Additional observations from a re-analysis of the deposited data

How the results depend on the processing

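The count of genes called over the whole comparison, 335, depended on the processing. It was 28 without the filter, 163 with median-ratio scaling, 803 with library quality weights, 35 with the replicate block, and between 15 (without *ice1-2* C) and 628 (without Col-0 A) with 1 library left out, and 6 without both the filter and Col-0 A, a combination chosen after seeing the data, which called 0 members and passed 0 list genes. Libraries of the same letter deviated from their genotype means with r of -0.21, 0.05 and 0.12, and those of different letters with r between -0.29 and 0.22. With so few libraries these values cannot decide whether the same letter means a shared batch. With the replicate block 0 members were called. The count of tapetum factors called, 0, was between 0 and 1 with 1 library left out (1 without Col-0 A) and 0 under every other alternative run. Genes of the target and upstream lists that passed numbered 0, but 2 with library quality weights and between 0 and 7 with 1 library left out (7 without Col-0 A). The log2 fold change of *bHLH10*, 0.04, was -0.14 with median-ratio scaling, -0.036 with library quality weights, and between -0.21 and 0.52 with 1 library left out, at -0.09, -0.20 and -0.21 without *ice1-2* C, Col-0 B and Col-0 C. That of *AMS*, 0.15, was -0.030 with median-ratio scaling and between -0.19 and 0.70 with 1 library left out, at -0.19 and -0.06 without Col-0 B and Col-0 C, and that of *bHLH91*, 0.32, was between -0.18 (without Col-0 C) and 1.05 (without Col-0 A). For *MS1*, 0.13, it was between -0.45 (without *ice1-2* B) and 0.51 (without Col-0 A) with 1 library left out, at -0.07 and -0.04 without Col-0 B and Col-0 C, and for *MYB80*, -0.06, it was 0.020 with library quality weights and between -0.14 (without *ice1-2* B) and 0.086 (without Col-0 A) with 1 library left out. *bHLH89* and *TEK* stayed above 0 under every alternative run, *TEK* on at most about 9.64 fragments in a library. *DYT1* was listed at 0 in every *ice1-2* library and above 0 in every Col-0 library. Its sign was therefore fixed under every alternative and says nothing of stability. Apart from the libraries left out, the causes of these changes were not tested. The depth of *ice1-2* A limits what can be said of the low factors.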
